A study of Mus musculus with 24 samples.

Results

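Rgs genes encode regulators of G protein signalling, and 8 of them are described here in liver iNKT (LiNKT) cells of NOD mice: Rgs16, Rgs8, Rgs1, Rgs2, Rgs3, Rgs10, Rgs14 and Rgs19. They are 8 of the 55401 genes of the deposited count tables, and 16 of the 2873 deposited differentially methylated regions (DMRs) lie within 50 kb of their gene bodies. The genes were selected on measured values of these same data, with the Rgs8-Rgs16 neighbourhood of chromosome 1 at the centre, because the regions near Rgs8 and Rgs3 run in both directions. The methylation, chromatin and count values below are therefore descriptions.

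RGS proteins bind the active, GTP-loaded alpha subunit of a heterotrimeric G protein and speed its hydrolysis of GTP, which ends the signal of a G protein coupled receptor. Many receptors that steer lymphocytes, the chemokine receptors among them, signal through Gi proteins, and RGS proteins set how long that signal lasts. Cytosine methylation at CpG dinucleotides is usually high over gene bodies and low over active promoters and enhancers.

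All mice were of the NOD strain, and all cells were liver cells bound by the αGalCer/CD1d tetramer, which stains invariant NKT cells. Treated mice received nanoparticles that display αGalCer on CD1d (αGalCer/CD1d-NP), 20 µg per dose, in 2 doses a week for 5 weeks. The other group is called untreated here, as the study calls it for these assays. In general, the study's controls received either nothing or nanoparticles called Cys-NPs, and a figure caption gives vehicle for the multiome controls. Whole genome bisulfite sequencing (WGBS) used 7 female untreated mice of 17 weeks and 4 treated mice of 16 weeks. SmartSeq2, which sequences the transcripts of single sorted cells over their full length, used 3 male mice per group, and the multiome, whose chromatin part counts the cuts of a transposase in open DNA, used 5 untreated and 4 treated male mice, at 13 to 15 weeks in both assays. The study describes replicate preparations for WGBS, but the deposited tables give 1 value per cytosine and group, and each other assay had 1 table per group or 1 pool, so that no difference could be set against the spread between mice and no test was made. In treated mice, the study describes a sub-cluster of cells with features of T-regulatory type 1 cells (LiNKTR1). Here it is sub-cluster 5 of the predicted cell labels in the study's supplement.

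The WGBS table gives 1 fraction per cytosine and group with no read depth, so the depth behind each methylation value is unknown, and the SDs below run over CpG cytosines of a region and not over mice. WGBS averages over all cells of a preparation, so that a change within cells and a change in the mix of cells cannot be told apart. SmartSeq2 gave 172559865 counts in 273 untreated cells and 149084200 counts in 251 treated cells, with medians of 635257 and 599896 counts per cell. The 8 markers of iNKT and T cells were detected in both groups, at 6308 summed counts per 1000000 (CPM) without and 5951 CPM with treatment. At least 1 of them was read in all 273 untreated cells but in only 238 of the 251 treated cells (94.8%). The treated cells without such a read were kept. The 4 macrophage markers summed to 0.0116 CPM without treatment and 1811 CPM with it, the latter in 11 cells. NK cell markers summed to 197 and 791 CPM and hepatocyte markers to 0 and 82.3 CPM.

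Sequences of 6 stretches near the genes are shown to set stretches that changed in opposite directions side by side, with the Rgs16 stretch of the largest change among the 16 DMRs. They were read from GRCm38, a C57BL/6J genome, on the + strand, so that a NOD variant would not appear. CpGs are in capitals.
Rgs8 start, chr1:153652724-153653023, hyper-methylated: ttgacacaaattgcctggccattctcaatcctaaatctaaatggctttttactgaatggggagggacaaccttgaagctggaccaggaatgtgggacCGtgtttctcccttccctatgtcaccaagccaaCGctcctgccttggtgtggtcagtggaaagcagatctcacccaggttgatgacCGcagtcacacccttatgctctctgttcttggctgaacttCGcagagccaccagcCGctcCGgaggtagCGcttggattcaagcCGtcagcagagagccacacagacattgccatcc
Rgs8 intron, chr1:153667630-153667824, hyper-methylated: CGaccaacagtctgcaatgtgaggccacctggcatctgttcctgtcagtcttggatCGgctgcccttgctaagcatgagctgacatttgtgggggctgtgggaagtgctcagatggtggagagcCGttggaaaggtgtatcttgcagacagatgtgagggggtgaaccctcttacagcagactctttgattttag
Upstream of Rgs8, farther, chr1:153617225-153617524, hypo-methylated: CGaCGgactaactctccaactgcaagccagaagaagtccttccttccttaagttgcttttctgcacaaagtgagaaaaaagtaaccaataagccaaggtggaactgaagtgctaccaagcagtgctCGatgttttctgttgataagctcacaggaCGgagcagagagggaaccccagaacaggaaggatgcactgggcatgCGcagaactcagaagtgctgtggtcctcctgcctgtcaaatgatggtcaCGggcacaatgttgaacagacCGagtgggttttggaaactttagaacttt
Upstream of Rgs8, nearer, chr1:153632833-153633129, hypo-methylated: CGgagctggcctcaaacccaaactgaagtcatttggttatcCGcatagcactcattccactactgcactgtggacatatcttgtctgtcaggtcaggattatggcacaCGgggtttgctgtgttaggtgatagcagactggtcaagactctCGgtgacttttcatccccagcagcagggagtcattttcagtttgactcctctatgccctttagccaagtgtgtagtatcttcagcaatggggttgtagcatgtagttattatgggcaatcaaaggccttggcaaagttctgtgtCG
Rgs16 intron and exon, chr1:153741767-153741996, hypo-methylated: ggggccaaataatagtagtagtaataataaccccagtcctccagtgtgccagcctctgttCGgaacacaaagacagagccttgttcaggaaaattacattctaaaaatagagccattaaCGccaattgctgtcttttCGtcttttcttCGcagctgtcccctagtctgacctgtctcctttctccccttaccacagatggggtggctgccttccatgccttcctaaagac
Rgs3 intron, chr4:62617728-62618027, hyper-methylated: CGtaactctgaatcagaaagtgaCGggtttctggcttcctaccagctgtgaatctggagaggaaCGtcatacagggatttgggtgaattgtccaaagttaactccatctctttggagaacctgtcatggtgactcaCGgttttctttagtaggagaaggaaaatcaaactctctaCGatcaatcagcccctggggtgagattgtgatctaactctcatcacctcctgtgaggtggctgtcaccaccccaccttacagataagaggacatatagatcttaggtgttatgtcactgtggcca

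With both strands of a CpG averaged, the 8 CpGs of the Rgs8 start sequence held 7.5 to 32% methylation in untreated and 43 to 65.5% in treated cells. The 3 CpGs of the Rgs8 intron sequence held 6.5 to 40% and 39.5 to 84.5%. Each of these CpGs was higher in treated cells. The 7 CpGs of the farther upstream sequence went from 7 to 38.5% in untreated cells to 0.5 to 5.5% in treated cells. The 5 CpGs of the nearer one went from 50 to 90.5% to 18.5 to 45%. The 4 CpGs of the Rgs16 sequence lay at 87 to 94.5% in untreated and 20 to 24.5% in treated cells, the widest gap of the 6 sequences. The 5 CpGs of the Rgs3 intron sequence moved the other way, from 14 to 36.5% to 55 to 76%.

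Rgs16 (ENSMUSG00000026475.7, chr1:153740349-153745468, + strand) encodes a small RGS protein that is induced in activated T cells and limits chemokine receptor signalling. It had 7 hypo-methylated and 0 hyper-methylated DMRs within 50 kb. Over all 21938 protein-coding genes, 11.3% had a hypo-methylated DMR at that distance, and 3 of the 8 Rgs genes did, namely Rgs16, Rgs8 and Rgs3. For Rgs8, 6 of its 8 hypo-methylated DMRs are also counted for Rgs16. Since these regions chose the genes, nothing is read from those counts.

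The Rgs16 gene body was hypo-methylated almost from end to end. Its 4 DMRs cover 4489 bp, or 87.7% of the gene, the highest share among the 886 genes that have a hypo-methylated DMR in the body. A high share is easier to reach in a short gene, and Rgs16 spans 5120 bp. By the bp covered, it ranked 10 among the 886. Over the 178 CpG cytosines of these DMRs, methylation averaged 79.8 ± 23.9% (SD) in untreated and 26.0 ± 15.3% in treated cells, a difference of -53.7 ± 18.96 percentage points. The first of them begins 368 bp after the transcription start, at chr1:153740717-153741766, and 33 of its 34 cytosines were lower in treated cells. The second, at chr1:153741767-153741996, spans the sequence shown above and went from 88.1 ± 9.57% to 21.2 ± 8.05% (SD, 10 cytosines). It fell by 66.9 percentage points, which ranked 11 among the 2873 regions.

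The third DMR of the Rgs16 body, at chr1:153741997-153743106, was the most uneven. It averaged 64.2 ± 34.2% in untreated and 17.05 ± 10.7% in treated cells (SD, 44 cytosines), and single cytosines of the untreated cells ran from 3 to 98%. Of the 90 CpGs in the 4 body DMRs, 7 were under 25% already in untreated cells, at 3 to 22%, and they lay at 0 to 12% in treated cells. The other 83 ran from 29.5 to 98%, with a median of 90%, in untreated cells and from 1 to 64.5%, with a median of 26.5%, in treated cells. So most of the gene body went from nearly full to low methylation around a few CpGs that were low in both groups.

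What remained in treated cells was highest at the 3′ end of Rgs16, but it did not rise at every step. The mean over the 4 body DMRs, in order, was 13.6, 21.2, 17.05 and 35.7%, and the DMR just past the gene, at chr1:153745565-153745869, held 61.0 ± 9.07% as compared to 91.1 ± 5.74% in untreated cells (SD, 10 cytosines). Upstream, the DMR at chr1:153723812-153724039, in an exon of the lincRNA C230024C17Rik, went from 65.2 ± 15.4% to 24.8 ± 12.9% (SD, 15 cytosines). The transcription start of Rgs16 itself lies in no DMR, and its methylation is not analysed here, since 375784 of the 376954 cytosines of the site table are in DMRs.

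Rgs8 (ENSMUSG00000042671.12, chr1:153653025-153700323, + strand) lies upstream of Rgs16 on the same strand and encodes a close relative that is best known from the brain. Its body held 2 hyper-methylated and 0 hypo-methylated DMRs. Among protein-coding genes, 6.97% had a hyper-methylated DMR within 50 kb, and of the 8 Rgs genes these were Rgs8 and Rgs3. Both also had hypo-methylated DMRs within 50 kb, as did 1.57% of protein-coding genes, and Rgs3 alone had both directions inside the gene body, as did 0.529%. The rule chose the genes for this pattern, so these counts are no finding.

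The first hyper-methylated DMR, at chr1:153652530-153653505, straddles the Rgs8 transcription start and the 5′ exon. It went from 18.6 ± 19.5% in untreated to 42.8 ± 20.9% in treated cells, with 59 of its 60 cytosines higher and 1 lower. Of its 31 CpGs, 22 were under 25% in untreated cells, with a median of 8%, and the same 22 had a median of 36.75% in treated cells. The start of Rgs8 was thus mostly unmethylated in untreated cells and partly methylated in treated ones. At 3.07 CpGs per 100 bp, this DMR is as CpG-dense as the C230024C17Rik DMR and denser than the Rgs16 body DMRs, which hold 1.52 to 2.14.

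The second hyper-methylated DMR, at chr1:153667630-153667883, is 14732 bp into Rgs8, where it meets a non-coding 5′ exon and lies within 2 kb of 4 annotated Rgs8 transcript starts. All 10 of its cytosines were higher in treated cells, at 24.4 ± 11.9% and 71.0 ± 17.02% (SD), a rise of 46.6 percentage points that ranked 46 among the 2873 regions. On the upstream side, methylation ran the other way. The DMR at chr1:153617225-153617578 went from 23.6 ± 9.33% to 2.8 ± 2.04% (SD, 15 cytosines), and the DMR at chr1:153632833-153633129 from 74.4 ± 14.8% to 29.6 ± 11.4% (SD, 10 cytosines). Along the chromosome, then, hypo-methylated DMRs upstream of Rgs8 were followed by the 2 hyper-methylated DMRs in Rgs8 and again by hypo-methylated ones in and around Rgs16.

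**Figure D1:**
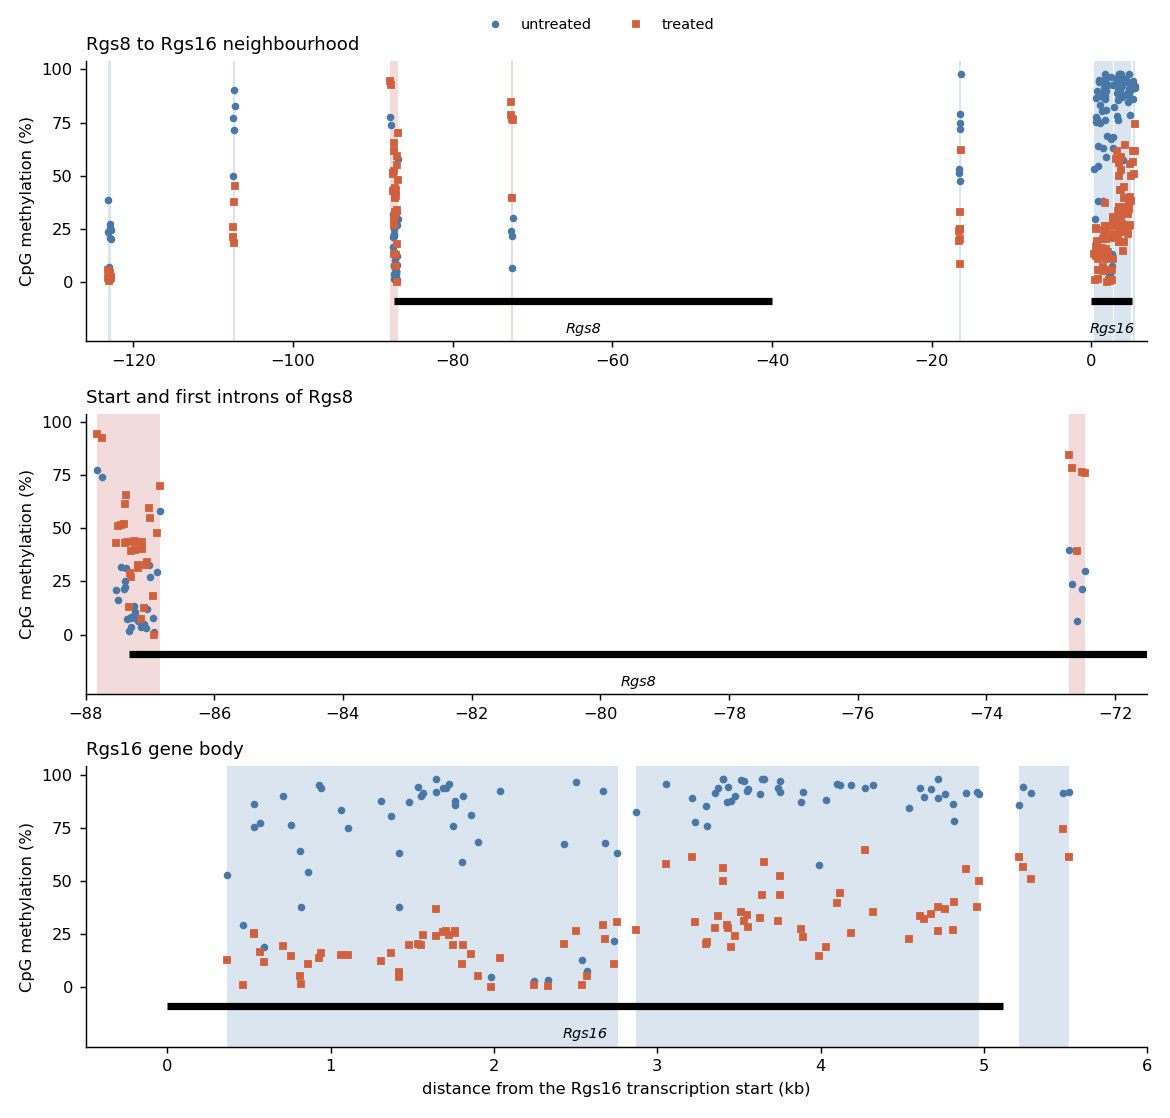
CpG methylation (%, both strands averaged) in untreated (circles) and treated (squares) cells against the distance from the Rgs16 transcription start in kb, for the whole neighbourhood, the start of Rgs8 and the Rgs16 gene body. Shading marks hypo-methylated (blue) and hyper-methylated (red) DMRs, and black bars mark genes. In the Rgs16 body 83 of 90 CpGs lie at 29.5 to 98% in untreated cells, whereas at the Rgs8 start 22 of 31 lie under 25%.

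Rgs3 (ENSMUSG00000059810.18, chr4:62559847-62704001, + strand) acts on Gi and Gq alpha subunits and has many transcript starts, and it showed the same mixture over a much longer gene. Its hyper-methylated DMR at chr4:62617728-62618085, in an intron and within 2 kb of the starts of 2 Rgs3 transcripts, went from 22.3 ± 11.1% to 61.6 ± 9.46%, with 12 of 12 cytosines higher. The other, at chr4:62640736-62641923 over a coding exon, went from 40.7 ± 23.5% to 63.8 ± 22.6%, with 48 of 48 cytosines higher. Together the 60 cytosines averaged 37.0 ± 22.7% in untreated and 63.4 ± 20.6% in treated cells, close to the rise over the 70 cytosines of the Rgs8 DMRs, from 19.4 ± 18.6% to 46.9 ± 22.6%, but from a higher level.

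The hypo-methylated DMRs of Rgs3, 340 to 505 bp long, lay on either side of these. The one in an intron, at chr4:62679024-62679363, went from 87.6 ± 13.2% to 65.9 ± 17.7% (SD, 23 cytosines). The one upstream, at chr4:62543809-62544313 in the body of 4933430I17Rik, went from 86.9 ± 6.65% to 37.6 ± 15.6% (SD, 14 cytosines), and the one 27360 bp past the gene, at chr4:62731361-62731775, from 84.2 ± 8.68% to 51.7 ± 12.5% (SD, 13 cytosines). Hypo-methylated DMRs thus covered 0.236% of the 144155 bp of the Rgs3 body, as compared to 87.7% of the 5120 bp of the Rgs16 body.

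**Figure D2:**
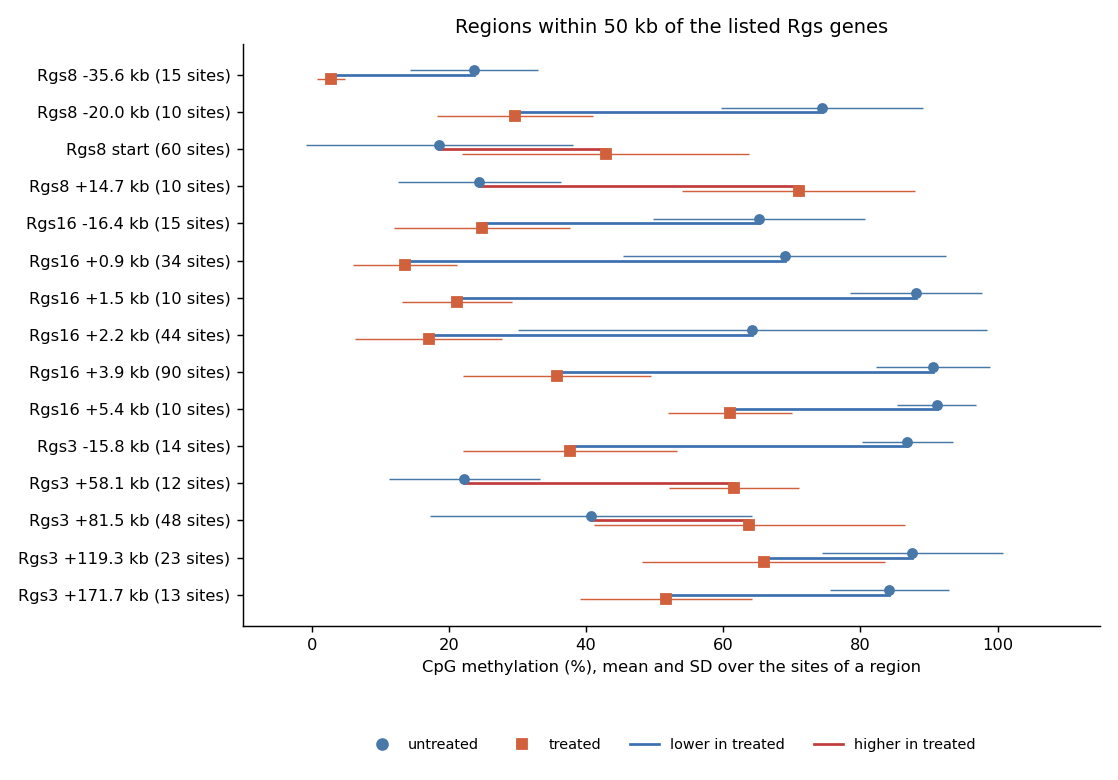
Mean CpG methylation (%) of 15 of the 16 DMRs within 50 kb of the listed genes in untreated (circles) and treated (squares) cells, with bars of 1 SD over the cytosines of a DMR and the distance of its centre from the named gene's start. The 11 blue lines run to lower and the 4 red lines to higher methylation in treated cells, and the widest is the second DMR of the Rgs16 body, from 88.1 to 21.2%.

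The other 5 genes had no DMR within 50 kb. Rgs2, which acts mainly on Gq alpha subunits, had the nearest, a hyper-methylated DMR 81469 bp away at chr1:143916950-143917869 that went from 13.0 ± 14.5% to 46.7 ± 17.7% (SD, 24 cytosines). Rgs1, which restrains the response of lymphocytes to chemokines, Rgs10, Rgs14 and Rgs19 had none within 100 kb. Around the 50 kb limit, the DMR past the 3′ end of Rgs16 lies 45242 bp from Rgs8 and was the last one counted for it, and the hyper-methylated DMR 81469 bp from Rgs2 was among those left out. Cytosines outside CpGs, which vertebrate cells other than neurons and stem cells rarely methylate, averaged 0.960 to 2.30% in untreated and 1.44 to 2.78% in treated cells over the chromosome 1 DMRs described here within 50 kb of Rgs8 and Rgs16, with no change of the size seen at CpGs.

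Chromatin was read from the multiome. Its fragments carry barcodes that end in 1 or 2, and the labels give neither ending a group, so that the endings are set side by side and neither is called treated. Barcodes with at least 1000 fragments numbered 8565 under ending 1 and 7237 under ending 2, with medians of 7104 and 8591 fragments, and 100 barcode sequences occurred under both. No doublet caller was run, and barcodes of up to 487765 and 527233 fragments were kept. Values are IPM, insertions per 1000000 insertions of an ending, each fragment counting at both ends, with exact Poisson 95% intervals. These intervals and those of the ratios treat the 2 ends of a fragment as independent. They can therefore be too narrow even for counting error, and they hold nothing of the spread between mice. The share of insertions within 1 kb of gene starts was 37.2% and 36.7%.

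The promoters (2 kb on either side of a gene's outermost annotated start) were more open under ending 2 for Rgs16 and Rgs8. Those of the other 6 genes were nearly level. No window was set around other starts of a gene. The hyper-methylated DMR within 2 kb of the starts of 2 Rgs3 transcripts was not level, with a ratio of 0.396, as given below. The Rgs16 promoter had 11.5 IPM under ending 1 (10.99 to 12.04) and 33.5 under ending 2 (32.6 to 34.5), a ratio of 2.91 (2.76 to 3.07). The Rgs8 promoter had 0.688 (0.566 to 0.828) and 2.86 (2.59 to 3.14), a ratio of 4.16 (3.37 to 5.16). Its window holds the whole DMR at the Rgs8 start, with 47 of its 112 insertions under ending 1 and 234 of its 428 under ending 2. The Rgs16 window likewise holds DMRs of the Rgs16 body, in whole or in part. The promoter ratios and the DMR ratios below therefore share insertions. On a per-kb scale, however, the Rgs8 promoter reached 0.172 and 0.714 IPM, as compared to 0.367 for the mean of the genome, so that it lay below that mean under ending 1 and above it under ending 2. The Rgs16 promoter stood at 2.88 and 8.38 on the same scale. For the other genes the ratio of ending 2 to ending 1 ran from 0.884 at Rgs2, with the most open promoter of the 8 at 88.7 and 78.4 IPM, to 1.05 at Rgs3, with 11.9 and 12.5. The Rgs1 promoter had 53.1 and 52.6, the Rgs14 promoter 38.3 and 37.7, the Rgs19 promoter 36.9 and 36.7, and the Rgs10 promoter 12.9 and 11.99.

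Within the Rgs8-Rgs16 neighbourhood the endings differed unevenly. In bins of 0.5 kb, the highest mean over both endings was at -16750 bp from the Rgs16 start, next to the hypo-methylated DMR in C230024C17Rik, with 24.3 IPM per kb under ending 1 and 57.2 under ending 2. The bin just upstream of the Rgs16 start had 11.1 and 35.1. Between Rgs8 and Rgs16 the bins varied, with 11.6 and 8.49 at -39750 bp, 10.6 and 17.35 at -37250 bp, 14.2 and 17.4 at -30750 bp, and 0.295 and 5.17 at -27750 bp. The difference between endings was therefore not the same in every bin.

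**Figure D3:**
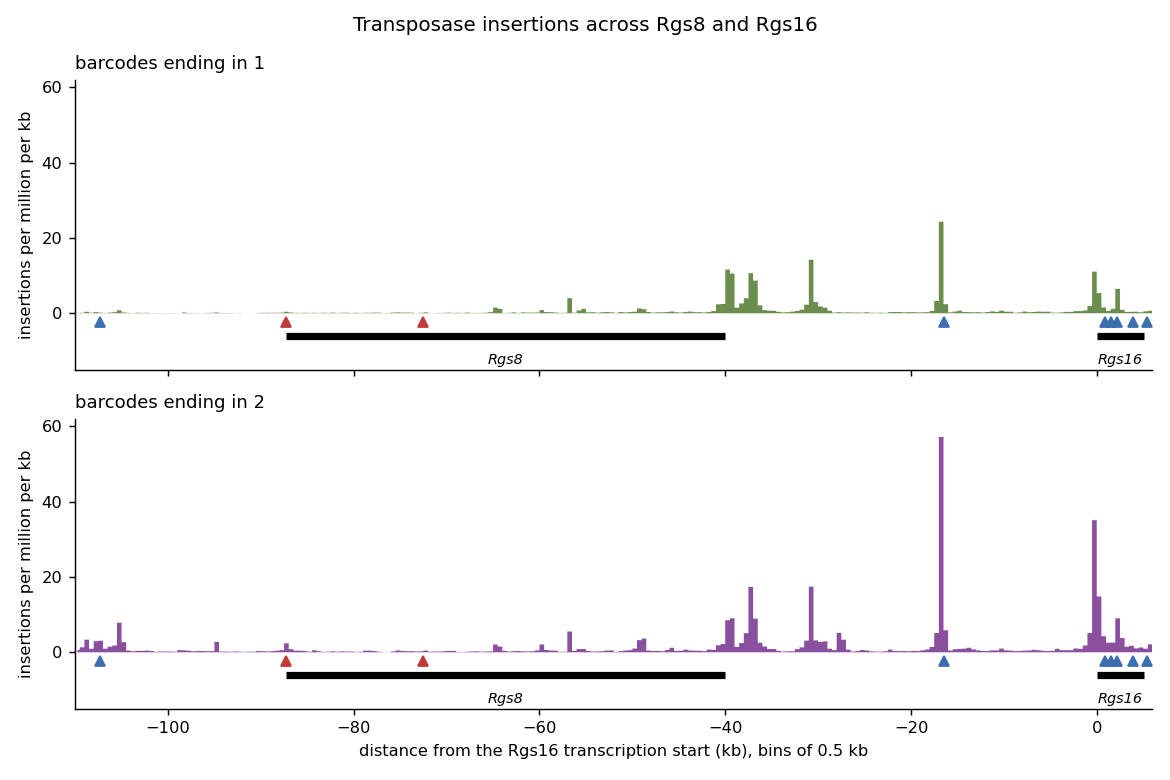
Transposase insertions in IPM per kb in bins of 0.5 kb against the distance from the Rgs16 transcription start in kb, for barcodes ending in 1 (top) and in 2 (bottom). Triangles mark hypo-methylated (blue) and hyper-methylated (red) DMRs, and black bars mark genes. The bin at -16750 bp reaches 24.3 and 57.2 and the bin before the Rgs16 start 11.1 and 35.1, while the bin at -30750 bp reaches 14.2 and 17.4.

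All 12 hypo-methylated DMRs of the Rgs genes had more insertions under ending 2, as did 95.3% of the 1804 hypo-methylated DMRs with at least 20 insertions. The 4 in the Rgs16 body had ratios of 2.90, 4.97, 1.70 and 3.99. The nearer DMR upstream of Rgs8 had 9 insertions under ending 1 and 217 under ending 2, a ratio of 26.2 (13.6 to 58.1), and the farther one had 400 and 2349, a ratio of 6.39 (5.74 to 7.12). Per kb, the farther one had 6.94 IPM under ending 1 and 44.3 under ending 2, the latter the highest level of the Rgs DMRs. The remaining ratios ran from 1.73 (1.09 to 2.79) just past Rgs16 to 2.74 (1.78 to 4.29) upstream of Rgs3. Ratios of at least 2 were found in 10 of the 12, as compared to 75.4% of those 1804, and ratios of 0.5 or less in 0 of the 12, as compared to 0.277%. The median ratio was 2.70 over the 12 and 4.13 over the 1804, so the Rgs regions shared the direction of most hypo-methylated DMRs with a lower median.

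The 4 hyper-methylated DMRs split by gene. The DMR at the Rgs8 start had 47 insertions under ending 1 and 234 under ending 2, a ratio of 5.41 (3.94 to 7.57), the second highest of the 849 hyper-methylated DMRs with at least 20 insertions. The DMR within Rgs8 had only 8 and 15, a ratio of 2.04 with an interval of 0.811 to 5.55 that includes no difference. Both ratios were at least 2, as were those of 2.00% of hyper-methylated DMRs. The Rgs3 DMRs went the other way, with 5.64 and 2.24 IPM in the intron, a ratio of 0.396 (0.349 to 0.450), and 2.52 and 1.67 over the coding exon, a ratio of 0.661 (0.563 to 0.776). Of all hyper-methylated DMRs, 36.0% had a ratio of 0.5 or less, the median ratio was 0.597, and 105, or 12.4%, were higher under ending 2. The DMR nearest Rgs2 followed that majority, at 6.65 and 3.31 IPM.

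**Figure D4:**
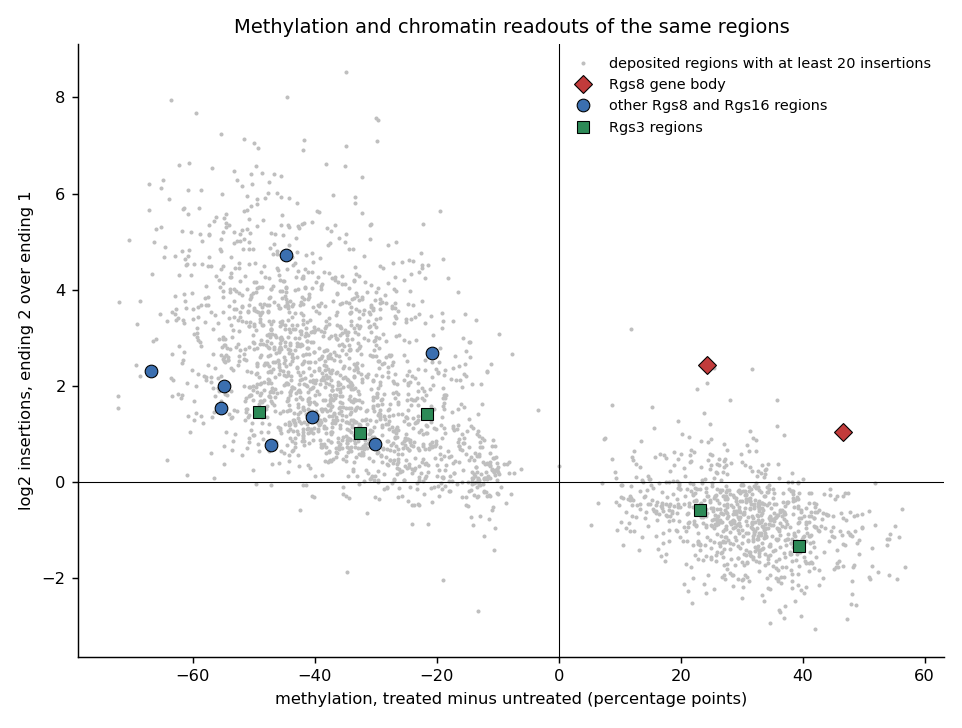
Log2 ratio of insertions under ending 2 to ending 1 against the methylation difference, treated minus untreated in percentage points, for DMRs with at least 20 insertions (grey), the 2 DMRs in the Rgs8 body (red diamonds), the other Rgs8 and Rgs16 DMRs (blue circles) and the Rgs3 DMRs (green squares). The Rgs8 diamonds sit above 0 on both axes, where few hyper-methylated DMRs lie, with ratios of 5.41 and 2.04. The ratio of 2.04 rests on 8 and 15 insertions, and its interval of 0.811 to 5.55 includes no difference. The hyper-methylated Rgs3 DMRs sit below 0 on the ratio axis, at 0.396 and 0.661.

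In SmartSeq2, the cells of each group were added up, and a gene was called where the log2 ratio of treated to untreated cells, with a prior of 1 CPM, was at least 1 in size. With at least 10 summed counts, 7 of the 8 genes could be compared. Rgs16, Rgs1 and Rgs10 were at least 2-fold up, as were 20.1% of the 15052 genes compared, and Rgs2 was at least 2-fold down, as were 17.2%. Rgs3, Rgs14 and Rgs19 moved by less. The Poisson intervals on CPM treat reads as independent, but the reads carry no molecular identifiers, and several can come from 1 molecule. These intervals can therefore be too narrow even for counting error. The binomial intervals on cells cover counting error only, and neither kind holds anything of the spread between mice. The median log2 ratio was -0.10 over the 7 genes and 0.02 over all genes.

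Rgs16 went from 1.69 CPM (Poisson 95% interval 1.504 to 1.90) without treatment to 24.7 CPM (23.9 to 25.5) with it, which is 3.25 as a log2 ratio. All 292 untreated counts came from 1 of the 273 cells (0.366%, exact binomial 95% interval 0.0093 to 2.02%), and the 3680 treated counts came from 10 of 251 cells (3.98%, 1.93 to 7.20%). With at least 5 reads required in a cell, 1 untreated and 7 treated cells (2.79%) remained. The cell with most counts held 29.2% of the treated total. By sub-cluster, 6 of the 57 treated cells of sub-cluster 5 had a read of Rgs16 (10.5%, 3.96 to 21.5%), as did 3 of 133 in sub-cluster 4 and 1 of 61 in sub-cluster 2. The level was 49.5, 23.2 and 0.121 CPM in these sub-clusters. Rgs16 was thus read in few cells of either group, most of them treated cells of sub-clusters 4 and 5.

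Rgs8 was at or near 0 in both groups, with 1 read in 1 untreated cell and 0 reads in treated cells. A count of 0 in 251 cells allows a share of up to 1.195% of cells with a read when 3 cells are taken as the floor, the exact binomial upper limit being 1.46%, and 3 reads would be 0.0201 CPM of the treated total, so no fold is given. A fall of Rgs8 transcripts was thus not detectable at this depth, and no rise was read. The study lists Rgs8 and Rgs16 among upregulated genes near hypo-methylated active enhancers, by its own limits on fold change and false discovery rate. Its expression data include bulk RNA sequencing, whereas the counts here are sums over sorted single cells. That list and these counts therefore differ in kind and depth.

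Rgs1 was the most abundant Rgs gene in CPM in both groups, and it went from 586 to 1332 CPM, a log2 ratio of 1.18. Reads were found in 86 of 273 untreated cells (31.5%, 26.0 to 37.4%) and 125 of 251 treated cells (49.8%, 43.5 to 56.2%). It was highest in sub-cluster 4, at 1515 CPM without and 1980 CPM with treatment, and in sub-cluster 2 it went from 407 to 815 CPM. In sub-cluster 5 it had only 418 CPM, with reads in 22.8% of cells (12.7 to 35.8%), as compared to 64.7% (55.9 to 72.7%) of treated cells in sub-cluster 4. Sub-cluster 4 held 43 untreated and 133 treated cells, and the part of that difference in the sum over a group was not tested.

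Rgs2 went the other way, from 390 to 183 CPM, a log2 ratio of -1.09. Reads were found in 51 untreated cells (18.7%, 14.2 to 23.8%) and 31 treated cells (12.4%, 8.55 to 17.1%). Only 1 of the 57 cells in sub-cluster 5 had a read of Rgs2 (1.75%, 0.0444 to 9.39%), whereas 23 of 133 treated cells in sub-cluster 4 did (17.3%, 11.3 to 24.8%). Rgs10, a small RGS protein selective for Gi alpha subunits, went from 8.80 CPM in 5 cells (1.83%, 0.597 to 4.22%) to 44.9 CPM in 12 cells (4.78%, 2.49 to 8.20%), a log2 ratio of 2.23. Of the untreated counts, 1 cell held 51.7%. None of the 57 cells in sub-cluster 5 had a read of it, which allows a share of up to 6.27% at the upper exact limit.

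Rgs3 stood at 219 CPM without and 173 CPM with treatment, with reads in 44 and 32 cells and a log2 ratio of -0.34. Rgs14, whose protein also binds Ras and inactive Gi alpha subunits, stood at 172 and 149 CPM, with a log2 ratio of -0.21 and reads in 16 and 18 cells. Rgs19, another regulator of Gi proteins, stood at 205 and 191 CPM, with a log2 ratio of -0.10 and reads in 30 cells of each group. Neither direction of the Rgs3 DMRs had a matching 2-fold change in its summed counts.

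**Figure D5:**
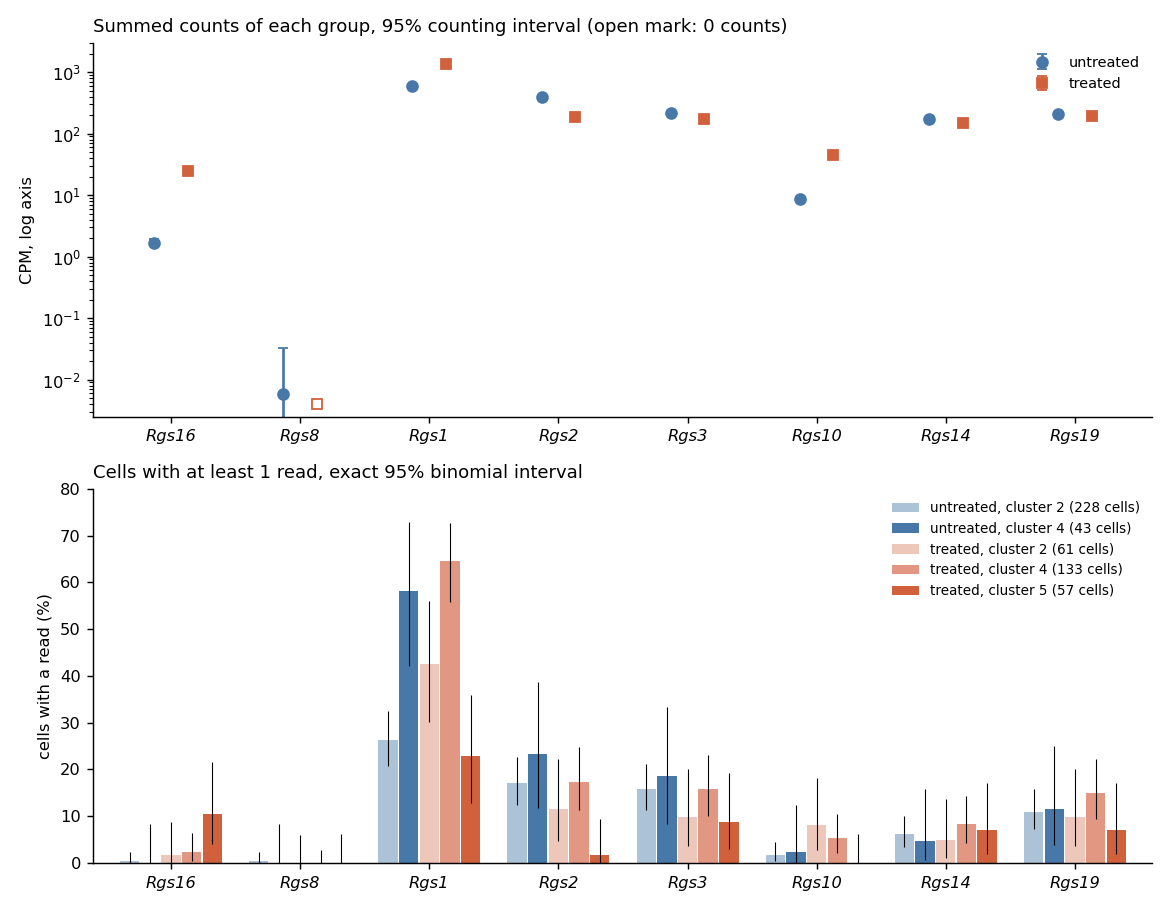
Top, CPM of each gene on a log axis in untreated (circles) and treated (squares) cells with Poisson 95% intervals, an open mark standing for 0 counts. Bottom, cells with at least 1 read (%) by sub-cluster with exact binomial 95% intervals. Rgs16 goes from 1.69 to 24.7 CPM with its tallest bar, 10.5%, in sub-cluster 5, while Rgs1 has its tallest bars, 58.1% and 64.7%, in sub-cluster 4.

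Levels between genes were compared per exon length, scaled to a total of 1000000. That length joins all annotated exons of a gene. For Rgs1 it is 6947 bp, the whole length of the gene, which lowers its level, so its place in the orders depends on the annotation. In untreated cells the order was Rgs2 (395), Rgs19 (338), Rgs1 (310), Rgs14 (149), Rgs3 (74.4), Rgs10 (18.9), Rgs16 (2.66) and Rgs8 (0.0022). In treated cells it was Rgs1 (668), Rgs19 (298.9), Rgs2 (176), Rgs14 (123), Rgs10 (91.6), Rgs3 (55.7), Rgs16 (36.8) and Rgs8 (0). With 1 table per group, which neighbours in these orders differ beyond the spread between mice is unknown. Rgs16 ranked above Rgs8 alone in both groups.

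Cell names carry a 1 or a 2 after a run code, which the labels do not explain and which is called lane here, and within lanes the calls were less even. Rgs16 went from 0 to 25.5 CPM in lane 1 and from 4.89 to 22.8 CPM in lane 2. The log2 ratio of Rgs1 was 1.49 in lane 1 and 0.66 in lane 2, that of Rgs2 -0.99 and -1.24, and that of Rgs10 1.07 and 4.08. Rgs14 and Rgs19 changed sign between lanes, at -0.39 and 0.71 for Rgs14 and at 0.15 and -0.79 for Rgs19. When the 9 untreated and 20 treated cells with a read of another cell type's marker (hepatocyte, B cell, macrophage, endothelial or stellate) were left out, a choice made after seeing the macrophage markers, the log2 ratio was 3.34 for Rgs16, 1.26 for Rgs1, 2.04 for Rgs10 and -1.27 for Rgs2, so these 4 genes stayed past 2-fold. NK cell markers, found in 18 untreated and 78 treated cells, were not left out, and their part in the result was not tested.

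Among the 10 treated cells with Rgs16 reads, 4 also had Rgs3 reads (40%, 12.2 to 73.8%), as compared to 28 of the other 241 (11.6%, 7.86 to 16.4%). Il10, the cytokine that defines T-regulatory type 1 cells, was read in 3 of the 10 (30%, 6.67 to 65.2%) and in 29 of the 241 (12.03%, 8.21 to 16.8%). Rgs2 was read in 0 of the 10 (upper limit 30.8%) and in 31 of the 241 (12.9%), and Rgs1 in 5 of the 10 (50%) and 120 of the 241 (49.8%). With 10 cells, these shares are a description.

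Other genes of the neighbourhood were counted as well. The lincRNA C230024C17Rik, which holds the DMR upstream of Rgs16, had 0 reads in untreated and 273 reads in treated cells, all from 1 cell. Gm28513, annotated antisense to the 3′ end of Rgs16, had 0 reads in both groups, and the pseudogene Gm6652 near the farther upstream DMR had 2 and 149 reads.

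The rest of the pathway was described from gene lists. Of 15 other Rgs genes, 2 had enough counts, and Rgs12 was up, from 0.522 CPM in 1 cell to 8.14 CPM in 2 cells, whereas Rgs11 stood at 10.2 and 10.6 CPM. Of 9 G alpha subunits, 1 was at least 2-fold up and 3 were down, with a median log2 ratio of -0.23. Of 10 beta and gamma subunits 2 were up and 0 down, with a median of 0.14. Of 17 kinases, arrestins and other regulators 5 were up and 3 down, with a median of 0.00. With so few genes, these counts are a description beside the 20.1% and 17.2% of all genes.

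G protein coupled receptors of lymphocyte migration and activation, the receptors whose signals RGS proteins end, numbered 23 with enough counts, 5 up and 6 down, with a median log2 ratio of -0.12. Cxcr6, the chemokine receptor that holds iNKT cells in liver sinusoids, went from 4638 CPM in 206 untreated cells to 2025 CPM in 114 treated cells, a log2 ratio of -1.20. Of 14 T cell activation genes, 6 were up and 4 down, with a median of 0.92, and over all genes the shares were 20.1% up and 17.2% down. Egr1, an early transcription factor of receptor signalling, had a log2 ratio of -2.24, Il2ra, the alpha chain of the IL-2 receptor, -1.55, and Cd69, an early activation marker, -1.51, while Batf, a transcription factor of effector T cells, had 1.16. Genes of this list were named by the limits on counts and cells given below, so those named do not stand for the list.

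The Rgs16 promoter is shown because it gained insertions under ending 2 while the start lies outside the DMRs. These are 250 bases of the GRCm38.p6 RefSeq promoter, chr1:153740103-153740352, on the + strand, with its 17 CpGs in capitals.
Rgs16 promoter: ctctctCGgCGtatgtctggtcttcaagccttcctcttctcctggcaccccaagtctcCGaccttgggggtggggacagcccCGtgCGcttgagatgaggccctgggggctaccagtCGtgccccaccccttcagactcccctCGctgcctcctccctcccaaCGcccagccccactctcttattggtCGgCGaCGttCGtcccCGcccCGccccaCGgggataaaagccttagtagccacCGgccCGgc

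Promoter windows, from 250 bases before to 50 after a start, were found for 6 of the 8 genes, as 11 entries, and not for Rgs1 and Rgs14. The Rgs16 window held 22 CpGs, as compared to a median of 7 over 32851 windows, and the windows of Rgs2 and Rgs10 held 33 and 34. The main Rgs8 start held 12. Both strands were searched for NFAT (GGAAA, in 61.3% of all windows), AP-1 (TGANTCA, 7.81%), CRE (TGACGTCA, 1.79%), NF-kB (GGGANTTCC, 1.68%), RUNX (TGTGGTTT, 1.78%), E-box (CACGTG, 7.15%), E4BP4 (TTANGTAA, 2.32%), T-box (TCACACCT, 1.28%), MAF (TGCTGAC, 4.67%) and EGR (GCGTGGGCG, 0.612%). No motif searched was found in the windows of Rgs16, Rgs2 and Rgs10. The main Rgs8 window held NFAT and MAF, another Rgs8 window RUNX and MAF, the 2 Rgs3 windows MAF and NFAT, and the 3 Rgs19 windows NFAT, NF-kB and E-box among them. A match is a run of letters and says nothing of binding.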

How the data were processed

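WGBS reads were mapped to mm10 with BSMAP by the authors, who called DMRs with metilene. The deposited site table gives the methylated fraction of each cytosine as 1 value per group, and how mice were combined is not given in the sources used here. The deposited DMR table holds the authors' group means and q-values, the latter used only as a filter in 1 alternative and not printed, and a column of the authors' difference, which was not used. The authors' SmartSeq2 counts (STAR, GRCm38) are raw counts per gene and cell, and the cells to which the authors gave a sub-cluster were used, that is 273 of 284 and 251 of 282. The deposited chromatin fragments (Cell Ranger) count reads per fragment and barcode, and both ends of each fragment were counted here once for barcodes with at least 1000 fragments. The submitters' processing notes also name Bowtie2, DiffBind, MACS2, Seurat and Signac.

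The members and gene lists were chosen with earlier results of these data known. Genes outside the members were named where they passed a 2-fold ratio, a minimum of 500 summed counts, and detection in 10% of cells in either group, or by a fixed place (neighbours and lists), and Rgs11, Rgs12, C230024C17Rik, Gm28513 and Gm6652 were named as list members or neighbours below that limit, Il10 as a marker, and 5 genes by their correlation with Rgs16 over treated cells. Scripts in Python 3.11.15 with numpy 2.4.6, pandas 2.3.3, scipy 1.17.1 and pysam 0.24.0 computed all values and were tested on simulated data. Counts of genes called used a log2 ratio with a prior of 1 CPM. Intervals are 95% exact Poisson or Clopper-Pearson binomial intervals. Alternatives were other cells, scalings, priors, lanes, distances, region thresholds, ways of averaging sites and ways of counting fragments. The values of 1 DMR that is in the counts are not reported here.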

Additional observations from a re-analysis of the deposited data

How the results depend on the processing

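No paired analysis was possible because the deposited tables hold 1 value, table or pool per group. The 12 hypo-methylated DMRs within 50 kb of the 8 Rgs gene bodies became 6 within 2 kb and 5 with at least 20 CpG cytosines, both strands counted. The 4 hyper-methylated ones became 2 within 50 kb of the transcription starts and 2 with at least 20 CpG cytosines, by construction of these narrower counts. The count of Rgs genes at least 2-fold down, 1 in the report, became 0 with the mean of per-cell CPM (Rgs2 at -0.73) and 0 in lane 1 alone (Rgs2 at -0.99). The count at least 2-fold up, 3 in the report, was 2 in lane 2 alone, where Rgs1 was at 0.66. The cause was not tested. Over all genes, 3021 were at least 2-fold up and 2583 down with a prior of 1 CPM. These counts were 1931 and 1633 with a prior of 5 CPM, and 3796 and 3336 with a prior of 0.1 CPM. Over all alternatives run, the log2 ratio was 2.02 to 4.73 for Rgs16, 0.66 to 1.49 for Rgs1, 1.07 to 4.08 for Rgs10 and -1.27 to -0.73 for Rgs2. The chromatin ratio was 2.78 to 2.95 at the Rgs16 promoter and 3.77 to 4.21 at the Rgs8 promoter. Depth limits what can be said of Rgs8 transcripts, and the methylation values have no known depth.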

Other observations

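By correlation of log2 values over the 251 treated cells, among 917 genes read in at least 20% of them, the genes most like Rgs16 were Gm3200 (Pearson's r = 0.30), H2-Q4 (0.24), Tpt1-ps5 (0.24), Rpl13-ps1 (0.23) and Rhog (0.21). Cells are not replicates, and only 10 of them had Rgs16 reads, so these weak values are a description and no finding. The median over the 917 genes was 0.015. The 8 Rgs genes summed to 1582 CPM without and 2098 CPM with treatment, and a cell of either group had reads of a median of 1 of them, with a range of 0 to 4.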
